A study of Caenorhabditis elegans with 14 samples.

Results

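The 4 arrays described here are those titled heat shock or heat control, of 14 arrays in the series, and they were chosen by their titles alone. There were 2 arrays labelled heat shock and 2 arrays labelled heat control. The other 10 arrays were 5 from worms exposed to a microwave field and 5 from sham-exposed worms. All arrays carried total RNA of whole Caenorhabditis elegans of the wild-type N2 strain, a small soil nematode, with no transgene or mutant allele in any group. The worms were grown at 15 °C on Escherichia coli to the L4 stage, the last larval stage before adulthood, and each RNA was labelled with biotin for a 1-colour Affymetrix array.

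The labels give the heat arrays the protocol text of the microwave experiment, an exposure of 2.5 h at 26 °C. The temperature, length and recovery time of the heat treatment, and the handling of its controls, are not given in the sources used here. That text also states that RNA of 3 exposure runs was combined for an array, and it does not say whether this held for the heat arrays. The 2 arrays of a group are separate samples by their labels, so a p-value measures the spread between these arrays, which may be technical.

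Heat shock is among the best studied stress responses of this worm. Unfolding of proteins by heat frees the transcription factor HSF-1, which binds heat shock elements in promoters and switches on small heat shock proteins of the hsp-16 family and inducible Hsp70 genes within minutes. These genes are nearly silent in unstressed worms, and so they are commonly used as reporters of heat exposure. Other branches of the response, run by regulators such as DAF-16, SKN-1, XBP-1 and ATFS-1, act on the endoplasmic reticulum, the mitochondria, detoxification and protein turnover.

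Each value below is the log2 of the ratio that the authors deposited for a probe set, a group of short oligonucleotides for 1 transcript. The ratios of the 2 heat control arrays were relative to their own mean, since they summed to 2 to within 0.001 for every probe set. A control value above 0 on one array therefore always meets a value below 0 on the other. The ratios of the arrays labelled heat shock were read as relative to that same control mean, an inference that no label states. Fold changes are log2 differences, arrays labelled heat shock minus arrays labelled heat control, with the standard error (SE) of the limma fit and n = 2 arrays in each group.

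The genes that mark heat exposure were lower, not higher, in the arrays labelled heat shock. The hsp-16.2 probe set read -4.96 and -4.77 on the arrays labelled heat shock, against -0.19 and 0.17 on the arrays labelled heat control, a log2 fold change of -4.86 ± 0.17 or 28.96-fold lower (limma adjusted p = 0.00202). The probe set shared by the paired genes hsp-16.1 and hsp-16.11 read -5.17 and -4.51 on the arrays labelled heat shock and -0.01 and 0.01 on the arrays labelled heat control. In both cases the groups lay far apart, and the products of these genes are small chaperones that hold unfolded proteins.

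The probe set shared by hsp-16.48 and hsp-16.49 had -4.41 and -3.73 on the arrays labelled heat shock, against -0.08 and 0.07 on the arrays labelled heat control, a log2 fold change of -4.07 ± 0.25. For hsp-16.41 the values were -5.50 and -4.49 on the arrays labelled heat shock, against -0.22 and 0.19 on the arrays labelled heat control. Its log2 fold change was -4.98 ± 0.35. The inducible Hsp70 genes F44E5.4 and F44E5.5 share a pair of probe sets, and 1 of them had the largest change of the heat genes. It read -5.69 and -4.99 on the arrays labelled heat shock and 0.10 and -0.11 on the arrays labelled heat control, which is 40.4-fold lower. The other probe set of these genes fell by 4.94 ± 0.14 on the log2 scale. The smallest change among the heat genes that fell was that of hsp-70, which read -3.18 and -3.51 on the arrays labelled heat shock and -0.14 and 0.13 on the arrays labelled heat control.

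**Figure D1:**
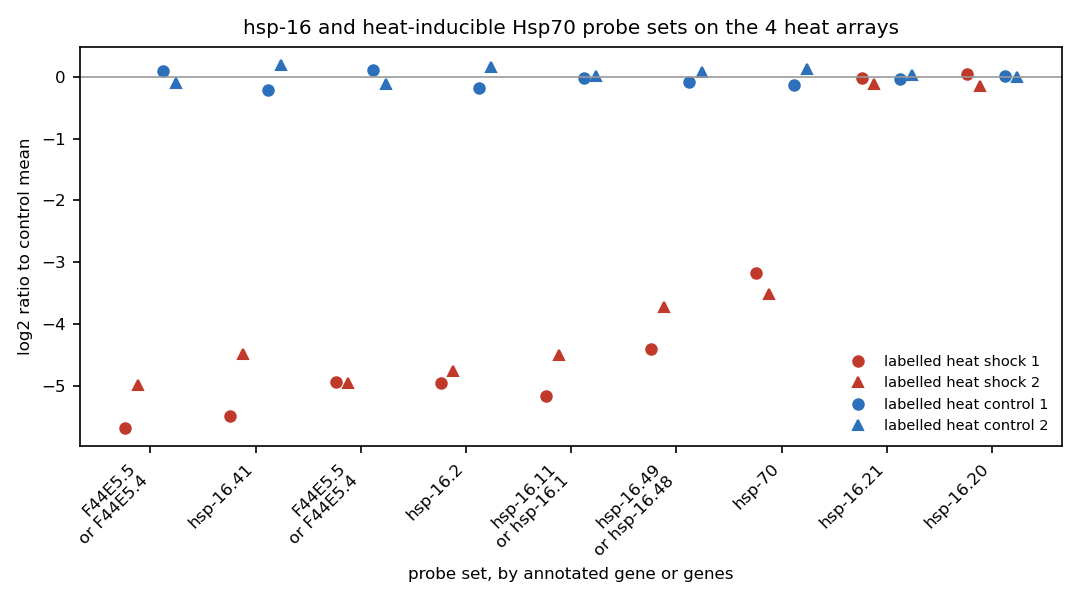
Log2 ratio to the control mean (vertical axis) of the 9 probe sets annotated to hsp-16 genes and heat-inducible Hsp70 genes, with 1 point per array, arrays labelled heat shock in red and arrays labelled heat control in blue. The red points of 7 probe sets lie between -5.69 and -3.18, below every blue point, while those of hsp-16.20 and hsp-16.21 lie among the blue points.

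The probe sets of hsp-16.20 and hsp-16.21, relatives outside the paired hsp-16 clusters, did not pass the test. The hsp-16.20 probe set had 0.04 and -0.15 on the arrays labelled heat shock and 0.01 and -0.01 on the arrays labelled heat control (limma adjusted p = 0.776). The hsp-16.21 probe set had -0.03 and -0.12 on the arrays labelled heat shock and -0.03 and 0.03 on the arrays labelled heat control (limma adjusted p = 0.681). In the microwave arrays, hsp-16.2 averaged -0.18 and hsp-70 averaged 0.14 relative to sham. These heat genes therefore go against the labels. All directions below are those of the labels, and each would turn round if the labels or the ratios ran the other way, which the sources used here do not settle.

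Over all genes, the arrays labelled heat shock differed from the arrays labelled heat control in about as many upward as downward calls, with the larger changes mostly downward. Of 17118 genes, each the mean of its own probe sets, 5129 passed a limma adjusted p of 0.05, which is 30% of those tested. Of all genes, 15.2% rose (2600) and 14.8% fell (2529). At least 2-fold rises were found for 629 genes (3.67%) and falls of that size for 1366 genes (7.98%). Of all probe sets, 14.7% rose and 15.3% fell.

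Leaving out 1 array labelled heat shock leaves a single array in that group, whose spread is then taken from the controls alone. Without the first of them no gene passed, with a lowest limma adjusted p of 0.0578 and 5094 genes at an unadjusted p under 0.05, so every count of calls between arrays labelled heat shock and heat control is 0 in that setting. Without the second of them 784 genes passed. The fold changes themselves stayed about as large: hsp-16.2 was at -4.76 and -4.95 and hsp-70 at -3.50 and -3.18 without the first and the second array. The groups did not overlap for any of the 5129 genes called. Over all genes, the groups did not overlap for 45.9%, where both arrays labelled heat shock were the higher ones, and for 27.1%, where they were the lower ones. Over genes, the 2 arrays labelled heat shock differed from each other with an SD of 0.242 and the 2 arrays labelled heat control with an SD of 0.382, against an SD of 0.7 for the log2 fold change.

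The balance of rises and falls depended on the scaling, and control probe sets moved with the groups. Rises made up 50.7% of the gene calls as deposited, 35.4% after centring each array on its median, 20% after centring on yeast and Bacillus control probe sets and 87.6% after centring on hybridisation spikes. Median centring lowered every log2 fold change by 0.114, the yeast and Bacillus centring lowered it by 0.282, and the spike centring raised it by 0.563. The yeast and Bacillus probe sets, for transcripts that worms do not have, had medians of 0.285 and 0.28 on the arrays labelled heat shock and -0.017 and 0.017 on the arrays labelled heat control. The 18 probe sets for bacterial and phage RNA spikes had medians of -0.763 and -0.411 on the arrays labelled heat shock and -0.29 and 0.241 on the arrays labelled heat control. Their part in any result was not tested. Among the genes named below as changed, the spike centring turned the direction of atp-2 alone, and neither of the other centrings turned any.

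**Figure D2:**
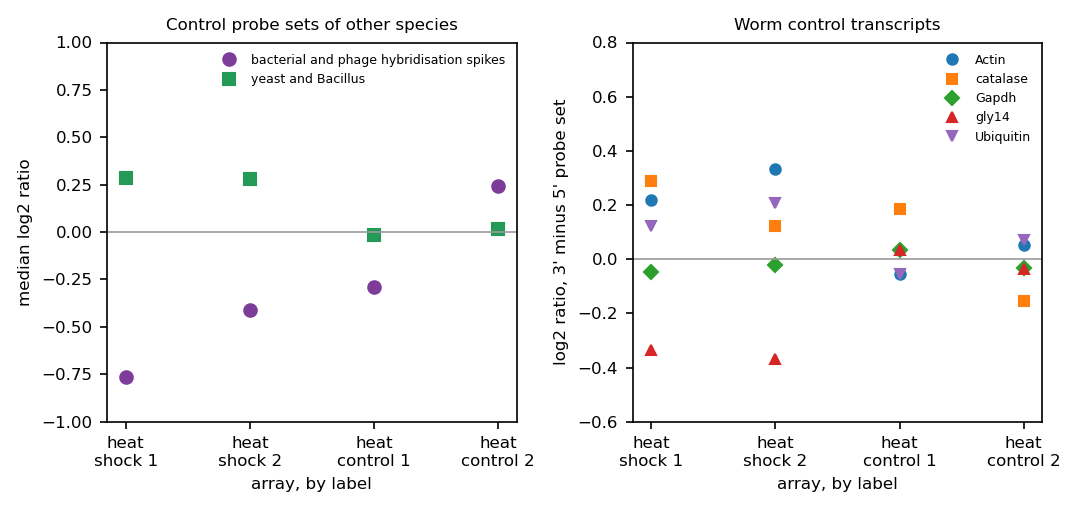
Left, median log2 ratio (vertical axis) of 32 yeast and Bacillus probe sets and of 18 hybridisation spike probe sets on each of the 4 heat arrays; right, the 3' minus the 5' log2 ratio of 5 worm control transcripts on the same arrays. The arrays labelled heat shock are higher than the arrays labelled heat control for yeast and Bacillus. The 3' to 5' differences average 0.047 more on the arrays labelled heat shock, but the 5 transcripts disagree, from -0.35 (gly14) to 0.275 (Actin).

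The largest rises were of genes with varied roles. The nematode-specific peptide gene nssp-36 read 3.83 and 4.02 on the arrays labelled heat shock, against 0.23 and -0.28 on the arrays labelled heat control, a log2 fold change of 3.94 ± 0.20 (limma adjusted p = 0.00232). The neuropeptide-like gene nlp-20 read 3.15 and 3.21 on the arrays labelled heat shock, against 0.08 and -0.08 on the arrays labelled heat control. The cuticle collagen gene col-131 read 3.64 and 3.75 on the arrays labelled heat shock, against 0.03 and -0.04 on the arrays labelled heat control. For all of these genes both arrays labelled heat shock lay far above both controls.

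The gene timm-17B.2, for a Tim17-type subunit of the mitochondrial inner membrane translocase, rose by 3.82 ± 0.46. Its control arrays were apart, at -0.87 and 0.54. The gene mtl-2, for a metallothionein that binds metal ions, read 2.85 and 2.89 on the arrays labelled heat shock, against -1.05 and 0.54 on the arrays labelled heat control. The rises of rnh-1.3, an RNase H gene (3.31 ± 0.41), of mxl-1, for a Max-like DNA-binding partner protein (3.06 ± 0.24), and of rpb-12, for a small RNA polymerase subunit (2.98 ± 0.16), were of similar size. The remaining 4 of the 12 largest rises were W03C9.5, D2023.1, K08F11.1 and F08F3.8, between 3.14 and 3.34.

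Probe sets shared by several genes, such as those of F44E5.4 and F44E5.5, were left out of the ranking of genes. Among genes with probe sets of their own, the largest fall after the hsp-16 genes was that of F45D3.4. It read -4.72 and -4.56 on the arrays labelled heat shock, against 0.40 and -0.55 on the arrays labelled heat control. The gene lys-10, a lysozyme gene, read -4.01 and -3.73 on the arrays labelled heat shock, against -0.16 and 0.14 on the arrays labelled heat control, a log2 fold change of -3.86 ± 0.17. The bestrophin gene best-14, for a chloride channel of the cell membrane, read -4.08 and -3.80 on the arrays labelled heat shock, against 0.07 and -0.08 on the arrays labelled heat control. The large ribosomal RNA gene rrn-3.1 read -3.88 and -3.45 on the arrays labelled heat shock, against -0.11 and 0.08 on the arrays labelled heat control. The controls of lys-10, best-14 and rrn-3.1 were close to each other, with a clear gap to the arrays labelled heat shock. Those of F45D3.4 lay further apart, with the second control the lower one. The F-box gene fbxa-72 fell by 3.63 ± 0.19, and R107.5 fell by 3.47 ± 0.20.

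Several of the largest falls had controls far apart. T02H6.3 read -3.78 and -3.97 on the arrays labelled heat shock, against 0.61 and -1.06 on the arrays labelled heat control. The gene spia-1 read -3.47 and -3.83 on the arrays labelled heat shock, against 0.57 and -0.97 on the arrays labelled heat control. H40L08.2 and Y54B9A.1, at -3.94 ± 0.47 and -3.83 ± 0.53, had the same order of controls. In such genes the second control array lay on the side of the arrays labelled heat shock, though the groups did not overlap. The controls differed by at least 1 log2 unit for 474 genes, or 2.77% of all. The second control was the lower one for 309 of them, of which 74 fell and 3 rose, while the first control was the lower one for 165, of which 8 fell and 8 rose.

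**Figure D3:**
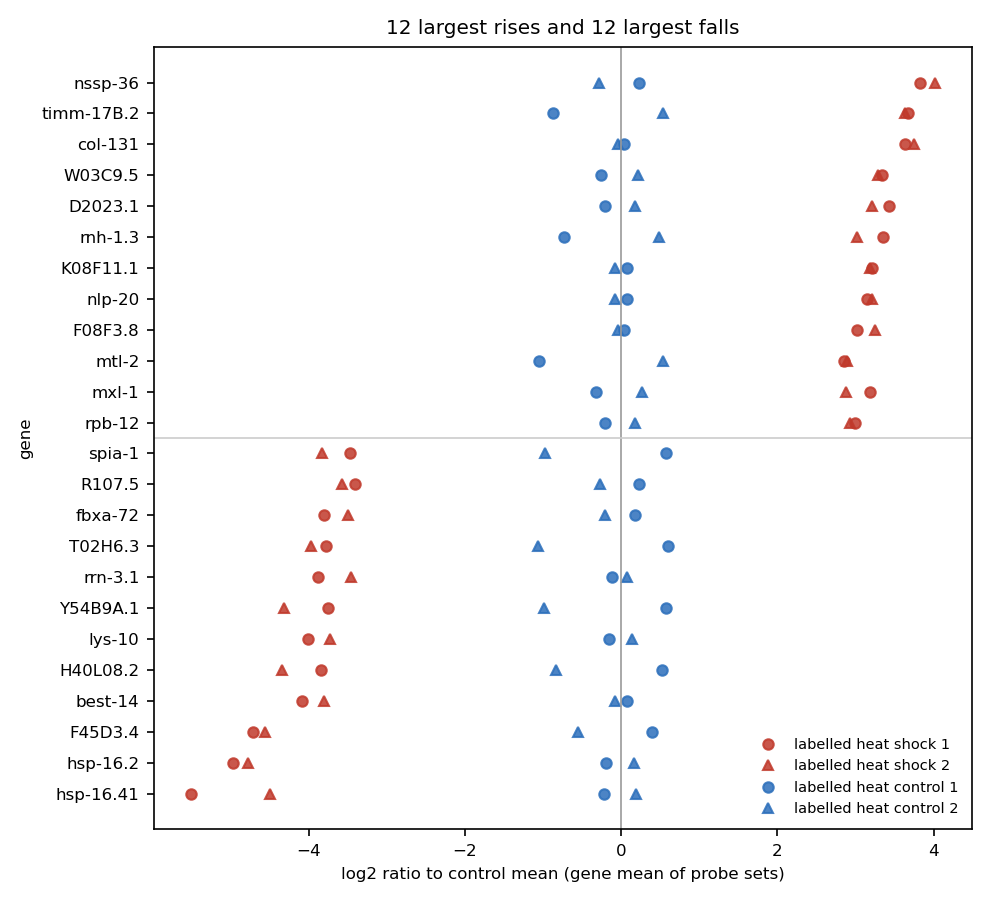
Log2 ratio to the control mean (horizontal axis) of the 12 genes with the largest rise and the 12 with the largest fall. Only genes with probe sets of their own were ranked. Each array is 1 point, with arrays labelled heat shock in red and arrays labelled heat control in blue. The red points lie beyond the blue ones for every gene, and the blue points spread by more than 1 unit for 4 of the falling genes and 3 of the rising genes.

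Beyond the hsp-16 genes and hsp-70, most chaperones that passed the test also fell. Of 75 genes over all chaperone lists, with hsp-16 genes and hsp-70 left out, 40 fell and 6 rose, and the median log2 fold change was -0.603 against 0.129 over all genes. Without the second array labelled heat shock 9 were called, all of them falls, and centring on the hybridisation spikes gave 10 falls and 9 rises. Where a list is given below with no gene called in one direction, the limma count in that direction at an unadjusted p under 0.05 was also 0, apart from 1 gene each for rises of moulting genes and for falls of chemoreceptor, histone and pals genes. The chaperone gene hsp-110, whose product helps Hsp70 exchange its nucleotide, read -1.77 and -2.02 on the arrays labelled heat shock, against -0.14 and 0.13 on the arrays labelled heat control. The gene daf-41, for the Hsp90 partner p23, read -2.12 and -1.73 on the arrays labelled heat shock, against -0.16 and 0.14 on the arrays labelled heat control. In the list of Hsp90 and its co-chaperones, 10 of 16 genes fell and none rose (1 fell with the spike centring). Among the falls was ahsa-1, for an activator of the Hsp90 ATPase (-1.40 ± 0.21).

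The cytosolic chaperonin folds actin and tubulin, and 5 of its 8 subunit genes fell while 1 rose. The fall of cct-4 was -1.58 ± 0.14 and the rise of cct-7 was 0.83 ± 0.11, so subunits of the same ring moved in opposite directions. Prefoldin hands actin and tubulin to that ring, and its subunit genes were likewise divided: pfd-1 fell by 1.75 ± 0.25 and pfd-4 rose by 0.84 ± 0.15. Of 29 DnaJ genes, which recruit Hsp70 to its clients, 17 fell and 1 rose, or 3 and 2 with the spike centring. The fall of dnj-13 was -1.80 ± 0.14. The riser, dnj-21, is for a mitochondrial J protein and had a log2 fold change of 1.2 ± 0.17. The list of small heat shock proteins outside the paired hsp-16 clusters included hsp-16.20 and hsp-16.21. Its 10 genes gave 2 rises and 2 falls, with hsp-12.1 at 1.08 ± 0.17 and hsp-25 at -0.79 ± 0.12. Without the first control array they gave 1 rise and 5 falls, and without the second 3 rises and 1 fall.

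The proteasome degrades ubiquitin-tagged proteins, and its parts differed in the counts of calls. Of 17 regulatory particle genes, 15 fell and 1 rose, with a median of -0.890, and 4 fell with the spike centring. Of 14 core particle genes, 2 fell and 6 rose, with a median of 0.004. The lid subunit gene rpn-8 read -2.46 and -2.36 on the arrays labelled heat shock, against 0.00 on both arrays labelled heat control. The fall of the ATPase subunit gene rpt-4 was -1.62 ± 0.13. The exception in the regulatory particle was rpn-11, for the deubiquitinating subunit, which rose by 0.66 ± 0.13. In the core, pas-5 rose by 1.06 ± 0.14 and pas-2 fell by 1.35 ± 0.15. No test compared the particles with each other.

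Ubiquitin ligase parts of the SCF type, which join a Skp1-like adaptor to F-box proteins, gave 11 falls and 2 rises of 29 genes. The Skp1-related genes skr-3 and skr-1 fell by 1.74 ± 0.25 and 1.35 ± 0.13. The RING subunit gene rbx-1 read 1.91 and 1.75 on the arrays labelled heat shock, against -0.32 and 0.26 on the arrays labelled heat control. Over the degradation lists together, 28 of 60 genes fell and 9 rose, while centring on the spikes gave 5 falls and 12 rises. Without the second array labelled heat shock 8 were called, all of them falls.

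In the endoplasmic reticulum, where secreted proteins are folded, 35 of 59 genes fell and 5 rose, and without the second array labelled heat shock 8 fell and 2 rose. The spike centring gave 9 falls and 5 rises. The gene xbp-1, whose spliced mRNA encodes a transcription factor of the unfolded protein response, read -1.96 and -1.99 on the arrays labelled heat shock, against 0.02 and -0.02 on the arrays labelled heat control. The gene hsp-4, for the BiP chaperone that xbp-1 controls, had a log2 fold change of -1.87 ± 0.20. The gene cup-2, for a derlin of the pathway that exports misfolded proteins, fell by 2.09 ± 0.15. These values cover the sensing and the disposal arms of the response.

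A few short genes of the same compartment went the other way. The gene dpm-3, for a stabilising subunit of the enzyme that makes the mannose donor for glycosylation, read 2.85 and 2.95 on the arrays labelled heat shock, against -0.03 and 0.03 on the arrays labelled heat control. The oligosaccharyltransferase subunit gene dad-1 rose by 1.53 ± 0.14, while ribo-1, for another subunit of that enzyme, fell by 1.49 ± 0.13. Among translocon and coat genes, 13 of 25 fell and 3 rose. The gene snap-1, for a factor that recycles membrane fusion complexes, fell by 2.11 ± 0.13, and the translocon subunit gene sec-61.B rose by 0.92 ± 0.11.

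The vacuolar ATPase pumps protons into lysosomes and other vesicles, and 15 of its 19 genes fell while none rose in the limma test. Centring on the spikes left 4 falls. The median over these genes was -1.146. The fall of vha-16 had -1.76 and -1.66 on the arrays labelled heat shock, against 0.11 and -0.12 on the arrays labelled heat control. The gene vha-11 had the same values on all 4 arrays to 2 decimals. Of 26 autophagy genes, 12 fell and 3 rose. The gene epg-4, for a membrane protein of the endoplasmic reticulum needed to form autophagosomes, fell by 2.2 ± 0.13, and lgg-2, for an LC3-type protein of the autophagosome membrane, fell by 1.49 ± 0.13. The gene lgg-3, for the ubiquitin-like protein of the ATG12 type, rose by 0.97 ± 0.14. Without the second array labelled heat shock, 6 of these 45 genes were called, all of them falls, and with the spike centring 6 fell and 4 rose.

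Genes for mitochondrial proteins were divided, with 38 falls and 31 rises among 140 genes. Small import chaperones of the space between the membranes rose: tin-9.1 read 2.91 and 2.86 on the arrays labelled heat shock, against -0.01 and 0.01 on the arrays labelled heat control. The related ddp-1 and tin-13 rose by 2.35 ± 0.22 and 2.25 ± 0.23. The prohibitin gene phb-2, whose product forms rings in the inner membrane, fell by 1.82 ± 0.13. Of 16 import genes, 8 rose and 3 fell, and the list held both ends of this range.

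Of 57 mitochondrial ribosomal protein genes, 16 fell and 12 rose, with mrpl-1 at -2.22 ± 0.14 and mrps-16 at 2.08 ± 0.13. In respiratory complex I, 8 of 18 genes fell and 3 rose. The fall of nuo-4 had -2.39 and -2.23 on the arrays labelled heat shock, against 0.03 and -0.03 on the arrays labelled heat control. In complexes II to IV, cox-17, for a copper chaperone of cytochrome oxidase, rose by 2.2 ± 0.13, and cyc-2.2, a cytochrome c gene, fell by 1.93 ± 0.30. The ATP synthase genes gave 3 rises and 1 fall of 10, with hpo-18 at 1.12 ± 0.13 and the catalytic subunit gene atp-2 at -0.48 ± 0.12. Centred on the hybridisation spikes, atp-2 was at 0.08. With the second array labelled heat shock left out, 12 of the 140 genes fell and 7 rose. Centring on yeast and Bacillus probe sets gave 58 falls and 24 rises, and centring on the spikes gave 9 falls and 41 rises.

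The mitochondrial genome itself encodes a few respiratory subunits, and 6 of its 8 genes on the array rose, with a median of 0.629. The gene ATP6 read 0.98 and 0.99 on the arrays labelled heat shock, against -0.10 and 0.09 on the arrays labelled heat control. The gene COX1, for the catalytic subunit of cytochrome oxidase, read -0.16 and 0.19 on the arrays labelled heat shock, against -0.05 and 0.05 on the arrays labelled heat control, and these groups overlapped. COX3 had 0.30 ± 0.13 and also did not pass. The mitochondrial unfolded protein response list gave 3 falls and 1 rise of 13, in which its regulator gene atfs-1 fell by 0.97 ± 0.13 and ubl-5 rose by 1.37 ± 0.14.

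Central metabolism had some of the most one-sided counts. Of 24 genes of the citric acid and glyoxylate cycles, 18 fell and 0 rose by limma, with a median of -0.995. The gene idhg-2, for an isocitrate dehydrogenase subunit, read -2.69 and -2.78 on the arrays labelled heat shock, against 0.37 and -0.51 on the arrays labelled heat control. The gene icl-1, for the glyoxylate cycle enzyme that lets worms make sugar from fat, fell by 1.95 ± 0.17. Of 20 glycolysis and gluconeogenesis genes, 10 fell, led by the pyruvate kinase gene pyk-2 (-2.42 ± 0.15) and including pck-2, for the enzyme that opens gluconeogenesis (-1.36 ± 0.12). None of these 20 genes rose.

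Fat metabolism also had more falls than rises, least one-sidedly among the lipid binding protein genes. Of 22 genes in the list of desaturases and elongases, 7 fell, 0 rose and 15 were not called. Of 17 lipid binding protein genes, 5 fell and 2 rose, with a median of -0.005. The desaturase genes fat-2, fat-3 and fat-4 act in the making of polyunsaturated fatty acids. The gene fat-3 read -3.06 and -2.93 on the arrays labelled heat shock, against -0.56 and 0.40 on the arrays labelled heat control. The fall of fat-2 was -2.47 ± 0.20 and that of fat-4 was -2.42 ± 0.30. The gene nhr-49, for a nuclear receptor that controls fat use, fell by 1.60 ± 0.15. Of 48 genes of acyl-CoA oxidation and the peroxisome, 23 fell and 1 rose.

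The peroxisomal gene maoc-1, for a hydratase of fatty acid shortening, read -2.85 and -2.53 on the arrays labelled heat shock, against -0.03 and 0.03 on the arrays labelled heat control. The import gene prx-14 fell by 2.57 ± 0.14, and the riser was ech-6, for an enoyl-CoA hydratase (1.09 ± 0.11). In trehalose metabolism, tre-1, for an enzyme that splits this sugar, fell by 2.1 ± 0.25, and tps-2, for an enzyme that makes it, fell by 1.07 ± 0.23. Vitellogenin genes, which encode yolk proteins of the adult, gave 0 calls of 5 by limma, with a median of 0.342 and vit-1 highest at 1.01. Their controls disagreed: 4 of the 5 fell without the first control array and all 5 rose without the second. Over all of metabolism, 68 of 144 genes fell and 3 rose, and without the second array labelled heat shock 17 were called, all of them falls. The spike centring gave 22 falls and 8 rises.

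Detoxification genes gave 46 falls and 28 rises of 218 (21.1% and 12.8%, against 14.8% and 15.2% over all genes). Glutathione transferases, which attach glutathione to foreign compounds, gave 11 rises and 5 falls of 45, but 6 rises and 7 falls after median centring and 4 rises and 8 falls centred on yeast and Bacillus probe sets. In this family gst-39 rose by 1.39 ± 0.12 while gst-42 fell by 1.37 ± 0.12. UDP-glucuronosyltransferases, which attach sugars, gave 17 falls and 4 rises of 64. The fall of ugt-22 had -2.63 and -2.21 on the arrays labelled heat shock, against -0.11 and 0.10 on the arrays labelled heat control. Cytochrome P450 genes gave 12 falls and 3 rises of 70, led by cyp-33A1 (-2.13 ± 0.15). That is 17.1% falls and 4.29% rises, against 14.8% and 15.2% over all genes. The test did not call 55 of those 70.

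Antioxidant genes were divided, with 8 rises and 7 falls of 27 (29.6% and 25.9%, against 15.2% and 14.8% over all genes). The gene prdx-6, for a peroxiredoxin, read 1.92 and 1.72 on the arrays labelled heat shock, against -0.06 and 0.05 on the arrays labelled heat control. The gene gcs-1, for the enzyme that limits glutathione synthesis and a known SKN-1 target, fell by 1.97 ± 0.17, and the peroxisomal catalase gene ctl-2 fell by 1.53 ± 0.13. Among metal response genes, the rise of mtl-2 stood beside falls of ftn-1, for the iron store ferritin (-2.1 ± 0.45), and cdr-4, for a protein of the cadmium-responsive family (-1.87 ± 0.44). Without the second array labelled heat shock, 10 of the 218 genes fell and 2 rose, and centring on the spikes gave 20 falls and 50 rises.

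Immune gene families gave 59 rises and 22 falls of 278 as deposited, mostly through C-type lectins, and 14 rises and 37 falls centred on yeast and Bacillus probe sets. Of 202 C-type lectin genes, whose products can bind sugars, 50 rose and 12 fell, but 6 of the rises and 6 of the falls reached 2-fold. The gene clec-85 read 2.71 and 2.63 on the arrays labelled heat shock, against 0.17 and -0.20 on the arrays labelled heat control. The gene clec-174 read -4.03 and -3.80 on the arrays labelled heat shock, against 0.76 and -1.68 on the arrays labelled heat control. Centred on yeast and Bacillus probe sets, 9 lectin genes rose and 18 fell, so falls outnumbered rises.

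Lysozyme and saposin-like genes gave 5 rises and 6 falls of 34, with spp-31, for a pore-forming saposin-like protein, at 2.14 ± 0.11. These shares of 14.7% and 17.6% were close to the 15.2% rises and 14.8% falls over all genes. Epidermal antimicrobial peptide genes were divided: cnc-8 read 2.28 and 2.39 on the arrays labelled heat shock, against -0.26 and 0.22 on the arrays labelled heat control. The gene nlp-29, which infection and wounding of the epidermis switch on, read -1.99 and -1.95 on the arrays labelled heat shock, against 0.35 and -0.47 on the arrays labelled heat control. Of 23 pals genes, which answer to virus and microsporidia, pals-26 alone passed the limma test (1.26 ± 0.29). Of the 278 immune genes, 6 rose and 1 fell without the second array labelled heat shock.

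In the epidermis, collagens of the col family gave more rises than falls as deposited, and the genes of moulting gave falls. Body shape collagens did not share the direction of the col genes: of 19 genes 1 rose and 4 fell, with a median of -0.588. Of 126 col genes, which build the cuticle, 35 rose and 4 fell, and 15 rose at least 2-fold. Centred on yeast and Bacillus probe sets, 17 col genes rose and 20 fell. The gene col-91 read 2.00 and 1.91 on the arrays labelled heat shock, against 0.41 and -0.57 on the arrays labelled heat control. Of 24 genes of moulting and the apical matrix, 10 fell and 0 rose by limma, with a median of -0.892. The gene noah-1, for a matrix protein of the epidermis in embryos and moults, read -2.71 and -2.65 on the arrays labelled heat shock, against 0.37 and -0.51 on the arrays labelled heat control. The gene lpr-3, for a lipocalin of the same matrix, fell by 2.78 ± 0.26.

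Several epidermal genes had controls apart in the same order, the second array below the first. The collagen gene bli-1, which makes the struts of the adult cuticle, had 0.58 and -0.99 on the arrays labelled heat control and fell by 2.15 ± 0.51. The hedgehog-related genes wrt-1 and wrt-10 fell by 2.40 ± 0.35 and 2.78 ± 0.28, and grl-27 rose by 1.68 ± 0.12. Outside the epidermal lists, the nuclear receptor gene nhr-17 had the same order of controls, at 0.60 and -1.04. It read -3.55 and -3.72 on the arrays labelled heat shock. Over the epidermal lists, 46 of 222 genes rose and 24 fell, and without the second array labelled heat shock 4 were called, all of them rises. These lists gave 30 rises and 34 falls after median centring, 21 rises and 58 falls centred on yeast and Bacillus probe sets, and 79 rises and 14 falls centred on the spikes. Without the second control array, which was the lower one, 17 of the 24 moulting genes fell, and without the first, 12 fell.

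Muscle genes mostly fell, and pharynx genes did not. The spike centring left 2 falls among filament genes and 3 among dense body genes. Of 23 genes for the contractile filaments of muscle, 15 fell and 2 rose, and of 21 genes for the dense bodies that anchor them, 11 fell and 1 rose. The myosin heavy chain gene unc-54 read -1.22 and -1.21 on the arrays labelled heat shock, against -0.14 and 0.13 on the arrays labelled heat control. The alpha-actinin gene atn-1 read -2.65 and -2.0 on the arrays labelled heat shock, against 0.02 and -0.02 on the arrays labelled heat control. The troponin I gene tni-1 fell by 1.64 ± 0.20, while tnc-2, for a troponin C of the pharynx, rose by 1.87 ± 0.14. In RNA of whole worms, fewer cells of a type and less RNA per cell cannot be told apart.

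Tissue markers were counted separately. All 6 body wall muscle markers fell, with a range of -1.57 (tnt-2) to -0.70 (mup-2). Of 6 intestine markers 4 fell, between -1.25 (ges-1) and 0.27 (vha-6) over the list. Of 4 measured pharynx markers 2 rose, with the highest, pha-4, at 0.52. No oocyte marker was called, and the highest of 6, puf-5, was at 1.11. Of 6 neuron markers 2 fell, with a median of -0.62 and unc-64 lowest at -2.38. Of 5 measured sperm markers 1 rose and 1 fell, with a median of 0.11. The markers of hypodermis, germ line, embryo and adult yolk had medians between -0.48 and 0.34. Their part in the results for those tissues was not tested.

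In the pharynx list, 10 of 17 genes rose and 1 fell, which became 3 rises and 1 fall after centring on yeast and Bacillus probe sets. The gene abu-11, of a family expressed in the lining of the pharynx, rose by 1.29 ± 0.12, and abu-13 of the same family fell by 1.26 ± 0.34. Of 30 intestine genes, 15 fell and 3 rose. The gene asp-4, for an aspartic protease of lysosomes, fell by 1.48 ± 0.17, and nhx-2, for a sodium and proton exchanger of the gut surface, fell by 1.62 ± 0.15. The cysteine protease gene cpr-3 fell by 2.65 ± 0.67 with controls at 0.69 and -1.38. Without the second array labelled heat shock, 8 of the 91 genes of muscle and gut fell and 2 rose, and the spike centring gave 7 falls and 19 rises.

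Genes for secreted neuronal peptides were called mostly as rises, unlike the neuron markers, of which 2 fell. Of 53 neuropeptide genes, 29 rose and 1 fell, with a median of 0.660. The gene nlp-1 read 2.53 and 2.38 on the arrays labelled heat shock, against 0.07 and -0.08 on the arrays labelled heat control. The gene flp-2, for an FMRFamide-like peptide, rose by 1.97 ± 0.13. The faller was nlp-40, whose peptide the gut releases to time defecation (-0.60 ± 0.15). Centred on yeast and Bacillus probe sets, 23 of the 53 rose and 3 fell.

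Of 24 insulin-like peptide genes, which act on the DAF-2 receptor, 13 rose and 1 fell. The gene ins-18 read 1.67 and 1.61 on the arrays labelled heat shock, against -0.12 and 0.12 on the arrays labelled heat control. The faller was ins-35 (-0.91 ± 0.12). Genes of synaptic release did not share this direction, with 3 rises and 3 falls of 24. Each share was 12.5%, against 15.2% rises and 14.8% falls over all genes. The syntaxin gene unc-64 read -2.40 and -2.36 on the arrays labelled heat shock, against -0.08 and 0.07 on the arrays labelled heat control. Of the 101 neuronal genes, 14 rose and 1 fell without the second array labelled heat shock.

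In the germ line, major sperm protein genes rose, and most genes of the other lists were not called. Of 23 major sperm protein genes, whose product drives the crawling of nematode sperm, 22 rose and 0 fell by limma. The gene msp-142 read 2.32 and 2.26 on the arrays labelled heat shock, against -0.59 and 0.42 on the arrays labelled heat control. Nearly all probe sets of this family can bind several near-identical genes, so its members are not separate measurements. The 1 member with a probe set free of such sharing, msp-32, was the one not called (-0.13 ± 0.31), and that probe set taken alone fell. Of 56 other sperm genes, 21 rose and 4 fell, led by ssp-31 (2.95 ± 0.18). The sperm gene spe-11, whose product the sperm carries into the egg, fell by 1.2 ± 0.16.

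Of 26 oocyte and eggshell genes 1 rose and 0 fell by limma, but the controls disagreed, with 3 rises and 12 falls without the first control array and 17 rises without the second. Of 30 genes of germline stem cells and P granules, 3 rose and 5 fell (10% and 16.7%, against 15.2% and 14.8% over all genes). Among meiotic genes, him-17 fell by 1.67 ± 0.12 and htp-2 rose by 1.17 ± 0.15. In DNA replication, mcm-6, for a subunit of the replicative helicase, fell by 1.27 ± 0.18, and psf-1, for a GINS subunit that travels with it, rose by 1.53 ± 0.20. Of 32 genes of zygotic embryos, 7 rose and 3 fell (21.9% and 9.38%), and the falls included the epidermal regulator lin-26 (-1.74 ± 0.17). Over the germline and embryo lists, 59 of 232 genes rose and 26 fell, and without the second array labelled heat shock 9 rose and 2 fell. Centring on yeast and Bacillus probe sets gave 33 rises and 43 falls, and centring on the spikes gave 85 and 3.

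Machinery of gene expression was divided, with 15.5% rises and 20.1% falls, against 15.2% and 14.8% over all genes. Of 55 splicing genes 14 rose and 11 fell, and those that rose most were short genes for Sm and Lsm proteins of the spliceosome: snr-5 read 1.84 and 1.89 on the arrays labelled heat shock, against -0.11 and 0.10 on the arrays labelled heat control. The related lsm-5 rose by 1.61 ± 0.12, while prp-31, for another factor of the spliceosome, fell by 1.33 ± 0.24. Genes of RNA polymerase subunits gave 6 rises and 3 falls of 20, with rpb-12 and rpb-10 (1.65 ± 0.13) up and rpc-25 (-1.69 ± 0.11) down. These subunit genes span 536 bp (rpb-12), 394 bp (rpb-10) and 923 bp (rpc-25).

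Of 32 aminoacyl-tRNA synthetase genes, which load tRNAs with amino acids, 16 fell and 2 rose, with dars-1 at -1.59 ± 0.12. Of 39 translation factor genes, 14 fell and 6 rose, with eif-2beta, for a subunit of the initiator tRNA carrier, at -1.76 ± 0.14. Of 21 genes of the nucleolus and ribosome assembly, 8 fell and 0 rose by limma, among them grwd-1 (-2.03 ± 0.20) and nst-1, for nucleostemin (-1.90 ± 0.15). Cytosolic ribosomal protein genes stood apart from these lists by how few were called: 6 of 62 rose and 1 fell, with a median of 0.114. Of 35 histone genes 7 rose, led by his-70 (2.28 ± 0.13), and 0 fell by limma. That is 20% rises, against 15.2% over all genes, and their median of 0.117 was close to the 0.129 over all genes. With the trend of fold change with gene length removed, 5 histone genes rose and 2 fell. Over gene expression as a whole, 53 of 264 genes fell and 41 rose, and without the second array labelled heat shock 11 fell and 7 rose. The spike centring gave 6 falls and 54 rises.

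The large gene families were mostly not called, with 11.4% rises and 1.5% falls, below the 15.2% and 14.8% over all genes. Of 1098 chemoreceptor genes, whose products sense odours and which few neurons express, 128 rose, none reached 2-fold and 0 fell. Their median was 0.227, below the 0.294 of the yeast and Bacillus probe sets, and centring on those probe sets left 13 rises and 5 falls. Of 243 nuclear hormone receptor genes, 22 rose and 18 fell, which became 3 rises and 46 falls with that centring. Of 262 F-box genes 32 rose and 6 fell, which became 8 rises and 20 falls. The F-box gene fbxa-218 read 2.19 and 2.00 on the arrays labelled heat shock, against -0.33 and 0.27 on the arrays labelled heat control. Of the 1603 genes of these families, 5 fell and 1 rose without the second array labelled heat shock. The rises of chemoreceptor genes came to 58 without the first control array and to 289 with the spike centring.

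Regulators of the stress responses fell more often than they rose, with 13 falls and 3 rises of 30, and 5 calls, all falls, without the second array labelled heat shock. The spike centring gave 6 falls and 5 rises. The gene hsf-1 itself read 0.47 and 0.22 on the arrays labelled heat shock, against 0.02 and -0.02 on the arrays labelled heat control (log2 fold change 0.35 ± 0.14, limma adjusted p = 0.114). Its inhibitor gene hsb-1 had -0.02 ± 0.15, and its groups overlapped. The insulin pathway factor gene daf-16 had -0.31 ± 0.18, and hlh-30, for a factor that controls autophagy, had -0.34 ± 0.11. None of these 4 genes passed the test, and centring on the hybridisation spikes put hsb-1 at 0.54, daf-16 at 0.25 and hlh-30 at 0.22.

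The oxidative stress factor gene skn-1 read -1.39 and -1.45 on the arrays labelled heat shock, against -0.09 and 0.06 on the arrays labelled heat control. The p38 kinase gene pmk-1, of the innate immune pathway, read -2.59 and -2.47 on the arrays labelled heat shock, against 0.02 and -0.02 on the arrays labelled heat control. The immune factor gene zip-2 fell by 2.09 ± 0.19, and akt-1, for a kinase downstream of the insulin receptor, fell by 2.02 ± 0.18. Upward calls were fewer and smaller: jnk-1, for a stress kinase, rose by 0.78 ± 0.19, and pha-4, for a factor of foregut identity and of longevity, rose by 0.52 ± 0.11. After median centring neither passed, with limma adjusted p-values of 0.0561 for jnk-1 and 0.0557 for pha-4, and no regulator rose.

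**Figure D4:**
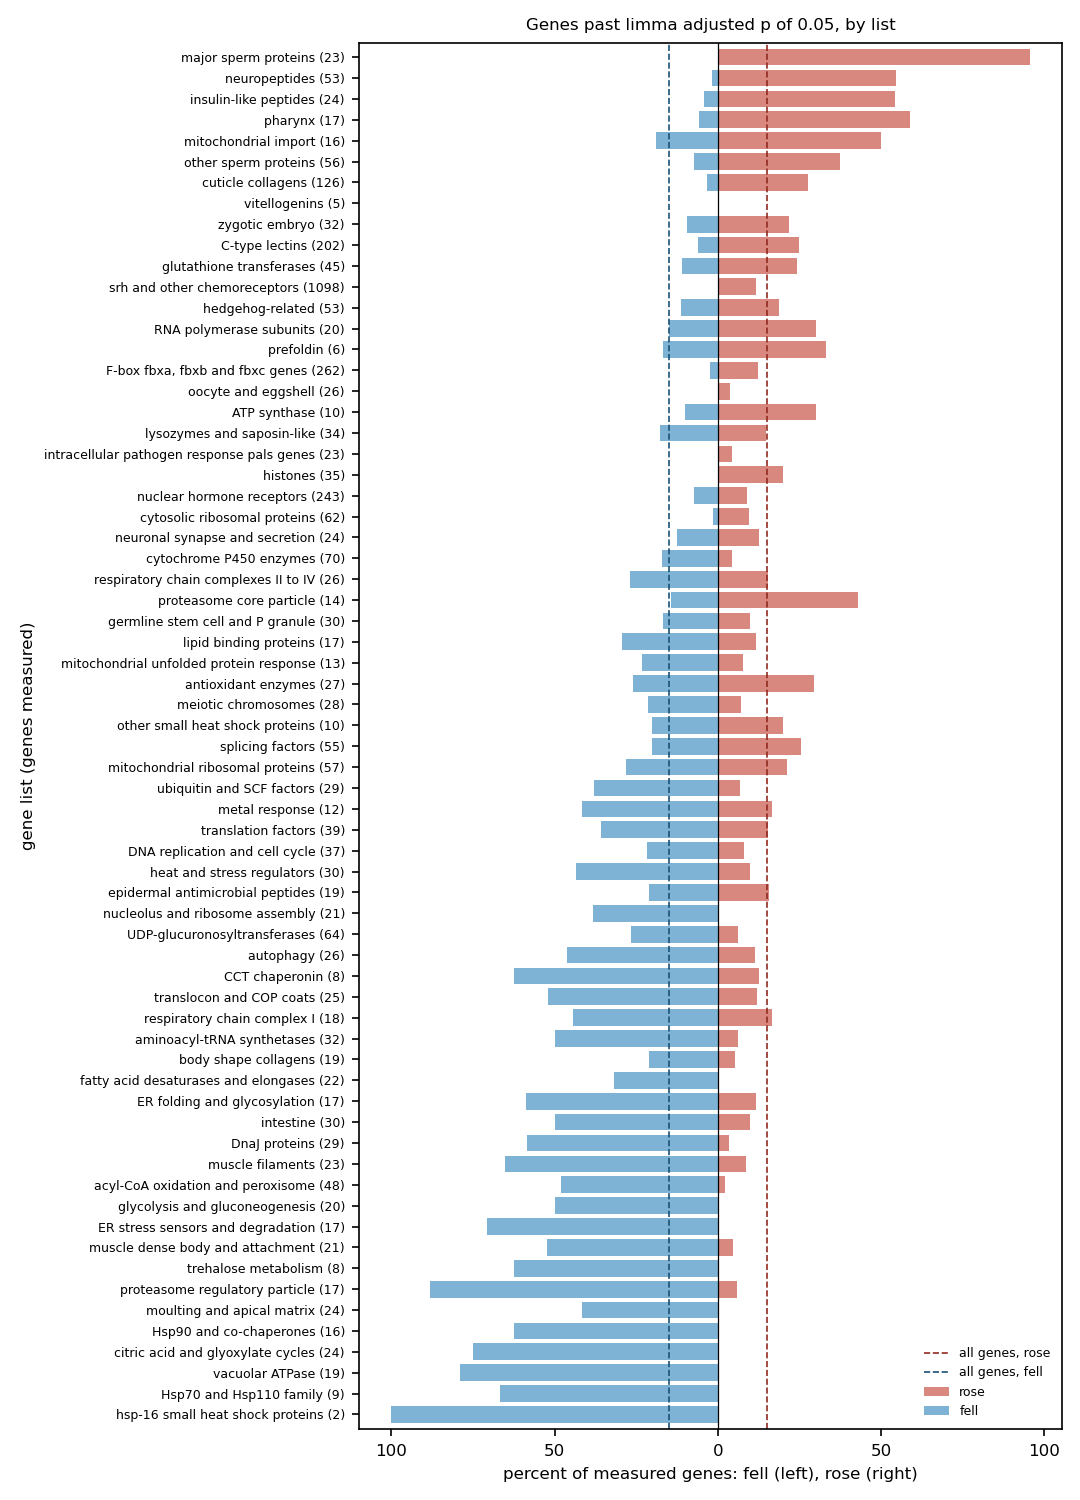
Percent of the measured genes of each list that fell (bars to the left, blue) or rose (bars to the right, red) at a limma adjusted p of 0.05, with the number measured in brackets and lists ordered by their median log2 fold change. Dashed lines mark the 15.2% of all genes that rose and the 14.8% that fell; major sperm proteins and neuropeptides lie at the top and chaperones, vacuolar ATPase and the citric acid cycle at the bottom.

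Across all genes, the direction of change went with gene length. Among the decile of genes with the shortest span, from 50 to 863 bp, 33.7% rose and 5.33% fell, with a median of 0.365. In the sixth decile, from 2185 to 2673 bp, 10.4% rose and 20.4% fell, with a median of 0.042. In the longest decile, 13.2% rose and 11.4% fell, so the relation was not a straight line. The same deciles had medians between -0.044 and 0.025 in the microwave arrays.

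Many of the genes named as risers are short, such as dpm-3 at 534 bp, tin-9.1 at 545 bp, snr-5 at 505 bp and his-70 at 405 bp. The hsp-16.2 gene, which fell, spans 624 bp. Removing a smooth trend with length left 2657 rises and 2398 falls over all genes. In that setting 40 of the 80 chaperone genes fell, 65 of the 144 metabolic genes fell, 28 of the 53 neuropeptide genes rose, and the rises among major sperm protein genes, all of 384 bp among those named, came to 12 of 23. For the autosomes and X, between 13.5% and 17.5% of genes rose and between 11.2% and 19% fell.

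**Figure D5:**
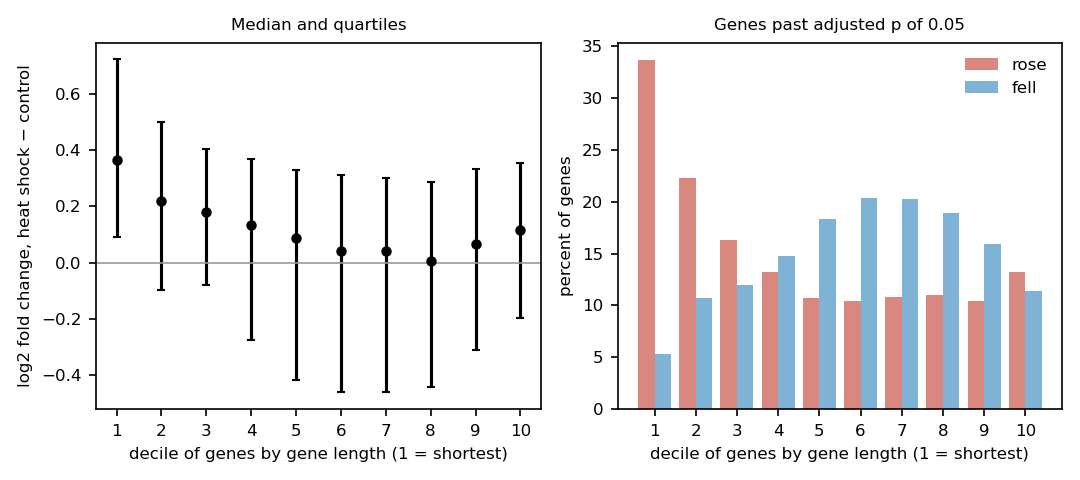
Left, median log2 fold change (points) with the lower and upper quartile (bars) of genes in each decile by gene length in base pairs; right, percent of genes in each decile that rose (red) or fell (blue) at a limma adjusted p of 0.05. The shortest decile has 33.7% rises and the middle deciles have more falls than rises.

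The heat comparison differed from the microwave comparison of the same series in a test of the difference itself. The log2 fold change between arrays labelled heat shock and heat control, minus the mean log2 ratio of the 5 microwave arrays to sham, passed a limma adjusted p of 0.05 for 6535 genes, or 38.2%, of which 3679 were higher and 2856 lower. For hsp-16.2 the difference had a limma adjusted p of 3.46e-05 and for hsp-70 one of 2.15e-06. None of the 24 genes with the largest heat changes had a mean microwave log2 ratio beyond 0.25 in size. Single microwave arrays varied around these means, with an SD from 0.07 (col-131) to 0.81 (rrn-3.1) among the 24 genes. Over all genes, the mean heat shock log2 ratio correlated with the microwave pairs between -0.4 (pair 1) and 0.19 (pair 4). Median centring gave 41.3% higher among the calls, against 56.3% as deposited.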

How the data were processed

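Total RNA of whole worms was hybridised to 14 Affymetrix arrays, of which the 4 titled heat shock or heat control are reported. The deposited table holds a linear ratio per probe set and array. Per the labels' protocols the arrays were read with the MAS 5 and GCOS software, and the submitters' processing notes name RMA with no version and it is not stated which of them made the values. The authors' deposited ratios were converted to log2. The baseline of the arrays labelled heat shock is inferred. Only ratios were analysed, so signal over background is unknown and the number of arrays limits the precision.

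After 77 control probe sets were left out, 22548 probe sets were tested. The platform annotation names 1 gene for 20766 of them, several for 887 and none for 895, and a gene's value is the mean over its single-gene probe sets (17118 genes). Lengths, for 99.7% of genes, came from RefSeq. Differences were tested with lmFit and eBayes of limma 3.58.1 in R 4.3.3 on the 2 arrays labelled heat shock and the 2 labelled heat control, two-sided, with no covariate and Benjamini-Hochberg adjustment over all features at 0.05. The difference from microwave added the 5 microwave arrays. The scripts were tested on simulated data.

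Genes and lists were chosen with earlier results of these data known. Named are the hsp-16 and hsp-70 genes, the 12 largest called rises and falls, up to 4 of the most changed called genes of each list with at least 1 from each direction called, and 8 regulators; genes of the mitochondrial genome and tissue markers outside that rule were named after their values were seen, and the chemoreceptor list was trimmed to receptor families in the same way. Array numbers were not taken to pair the samples: deviations of same-numbered arrays correlated at -0.055. Alternatives covered scaling, floor, variance, probe set choice, replicate block and leaving out each array. Scan batches were not tested, since no batch is named in the labels. Sequences are not used here.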

Additional observations from a re-analysis of the deposited data

Results flagged for a closer look

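Yeast and Bacillus control probe sets, which match no worm gene and enter none of the gene comparisons, read higher on the arrays labelled heat shock. Their median log2 fold change was 0.294 over 32 probe sets, arrays labelled heat shock minus arrays labelled heat control, with a range of -0.026 to 0.708 and 31 of 32 above 0. The median over all worm genes was 0.129. No sample was tested for standing apart from its group, since each group has 2 arrays.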

How the results depend on the processing

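With 2 arrays in each group, limma called 6774 probe sets and 5129 genes. Quantile normalisation left 0 calls of either kind, with 1959 probe sets and 1505 genes at an unadjusted p under 0.05; by construction it gives the control columns, which lie near 0, the spread of the other columns. Plain probe sets alone gave 4338 probe set calls. With a replicate block, 4312 probe sets and 3299 genes were called, and rises made up 41.9% of the gene calls. Deviations of same-numbered arrays correlated at -0.055, which with 2 arrays in each group cannot show whether array numbers pair the samples. A 2-fold minimum left 2749 probe sets and 1995 genes. Leaving out 1 array at a time gave 0 to 6594 probe sets, 0 to 5069 genes and, for the difference from microwave, 4274 to 7175 genes. Without the first array labelled heat shock, which leaves 1 array in that group and takes its spread from the controls, no call between arrays labelled heat shock and heat control remained, though of the 274 named genes 268 kept their direction while losing the call, and only hsb-1 turned, at 0.0056. The gene counts stayed within 1.5 times of the reported one under median centring, a ratio floor, robust variances, array weights, a zero control mean, removal of the length trend, the median of probe sets, plain probe sets, and centring on yeast and Bacillus or on spikes, the last 2 settings chosen after the data were seen. All 4146 genes called both as deposited and after median centring kept their direction. Reversals were few. Centred on the spikes, hsp-16.21 was at 0.49, hsp-16.20 at 0.51, hsb-1 at 0.54, daf-16 at 0.25, hlh-30 at 0.22 and atp-2 at 0.0816. The gene hsb-1 was at 0.0254 under quantile normalisation and between -0.1811 and 0.1339 with 1 array left out, hsp-16.20 was between -0.1456 and 0.0384 with 1 array left out, and rpl-12 was at 0.0265 with the median of its probe sets. The causes were not tested.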

Other observations

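Gene families that share a name stem and were in none of the lists were looked at by their stem, among 165 stems with at least 10 measured genes, and the families given here were picked after their values were seen. Of 34 vps genes, for sorting of vesicles to the lysosome, 12 fell and 2 rose, with vps-32.1, for a subunit of the ESCRT complex that cuts membrane necks, at -2.67. Of 20 rab genes, for small GTPases that direct vesicles, 9 fell and 1 rose, with rab-10 at -1.95. Of 13 alh genes, for aldehyde dehydrogenases, 8 fell and 1 rose, with alh-3 at -2.12 and alh-7 at 2.07. Of 23 acs genes, for enzymes that activate fatty acids, 9 fell and 1 rose, with acs-7 at -2.75.

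Other families held more rises than falls. Of 43 nssp genes, 27 rose and 1 fell, with a median of 0.584 on the log2 scale against 0.129 over all genes. Of 16 idpp genes 8 rose (50%) and of 44 npr genes, for neuropeptide receptors, 11 rose (25%). The share of rises over all genes was 15.2%. The largest npr value was 0.78, for npr-36, against a median of 0.294 in the yeast and Bacillus probe sets. Of the 2981 genes with more than 1 single-gene probe set, 1023 were called, and all probe sets of a gene had the same direction for 979 of these.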
